A study of Mus musculus with 36 samples.

Results

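The genes described here encode 9 subunits of the Polycomb repressive complexes, Ezh2, Eed, Suz12, Jarid2, Mtf2, Rnf2, Ring1, Pcgf6 and Kdm2b. They were chosen by symbol, and each had a row in all 6 deposited tables, as 9 of 18419 genes listed in every table and of 22979 listed in any. Their RNA was followed by SLAM-seq, in which 4-thiouridine (4sU) taken up during a pulse is read as T-to-C mismatches, so that a gene's reads can be divided into new and older RNA. The series asked how the stability of Xist RNA depends on METTL3, YTHDC1 and ZCCHC8. The subunits are measured in the same libraries.

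All 36 libraries came from mouse embryonic stem cells (mES cells) of Cast x 129S background in which a TetOn promoter drives Xist from the 129S allele and Xist carries a Bgl stem-loop array. Each of 3 lines was a single clone, with FKBP12 F36V fused to METTL3 (the m6A writer, clone 12D), YTHDC1 (a nuclear m6A reader, clone Y12H) or ZCCHC8 (a subunit of the NEXT complex, which delivers nuclear RNA to the exosome, clone Z12H). Ctrl cells had no dTAG-13, while dTAG cells had it from 2 h before doxycycline. All cells then had doxycycline at 1 µg/ml for 20 h before a pulse of 4 h with 500 µM 4sU. Doxycycline stayed in the medium during the pulse and the chase. The chase with 50 mM uridine lasted 0, 90 or 180 min, and each of the 18 groups had 2 replicates. The 6 libraries of a line and arm therefore come from 2 replicates at 3 times, and nothing in the sources says that the times came from separate cultures, so p-values measure the spread between these samples, which may be technical.

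The libraries held 5274684 to 18652000 reads counted to genes, with the fewest in ZCCHC8 libraries (5274684 to 10257631). The 8 stem cell markers (Pou5f1, Sox2, Nanog, Esrrb, Zfp42, Dppa5a, Fgf4 and Tdgf1) summed to 2432 to 3893 CPM, the edgeR unit of read counts scaled to the library total and by TMM, which removes differences in overall composition. The lines were kept on inactivated fibroblast feeders, which the study removed by preplating before the SLAM-seq cultures, and 10 fibroblast markers summed to 9.34 to 35.1 CPM, with Lum at 0 in 22 libraries and Twist2 at 0 in 13. The mRNA of a tagged gene does not show the loss of its protein, which was not analysed here: of the 3 targets, Ythdc1 mRNA rose with dTAG in the METTL3 line (log2 fold change 0.61, SE 0.12, edgeR adjusted p 0.00534) and the YTHDC1 line (0.60, SE 0.095, edgeR adjusted p 0.00487).

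Polycomb complexes keep developmental genes silent in stem cells by modifying histones. PRC2 methylates histone H3 at lysine 27 and PRC1 ubiquitinates histone H2A, and both marks accumulate on the X chromosome that Xist coats. EZH2 is the PRC2 methyltransferase, EED reads the mark and stimulates the enzyme, and SUZ12 holds the core together. JARID2 and MTF2 bring PRC2 to chromatin in alternative assemblies. RNF2 (RING1B) and RING1 are the alternative ubiquitin ligases of PRC1, PCGF6 defines a variant PRC1, and KDM2B binds unmethylated CpG islands and takes another variant PRC1 there.

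The genes lie on 8 chromosomes (build mm10, GENCODE M21 positions). Among the PRC2 genes, Ezh2 (ENSMUSG00000029687) is at chr6:47530139-47595341 on the minus strand, Eed (ENSMUSG00000030619) at chr7:89954654-89980983 on the minus strand, Suz12 (ENSMUSG00000017548) at chr11:79993106-80034123 on the plus strand, Jarid2 (ENSMUSG00000038518) at chr13:44729474-44921643 on the plus strand and Mtf2 (ENSMUSG00000029267) at chr5:108065674-108109004 on the plus strand. Among the PRC1 genes, Rnf2 (ENSMUSG00000026484) is at chr1:151458004-151500955, Ring1 (ENSMUSG00000024325) at chr17:34020792-34024680, Pcgf6 (ENSMUSG00000025050) at chr19:47033617-47050906 and Kdm2b (ENSMUSG00000029475) at chr5:122870665-122989823, each on the minus strand. Only Ring1 and Pcgf6 have no overlapping gene in this annotation. The library kit keeps strand, but its use in counting is not stated in the sources used here, so reads of the other 7 cannot be told apart from those of a gene on the opposite strand (Tmed5 for Mtf2, Trmt1l for Rnf2 and Rnf34 for Kdm2b).

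Because METTL3 and YTHDC1 write and read m6A, the transcripts were searched for GGACT, a common form of the sequence that the METTL3 complex methylates, on the transcript strand of 1 GENCODE M21 transcript per gene. Suz12 had none, and Jarid2 had 7, 1.17 per kb against a median of 1.04 over 19580 genes. GGACT lay within 200 bases of the end of the stop codon in 3 of 9 members, Eed, Mtf2 and Rnf2, against 37.4% of all genes. The copy nearest to that point is given here for these 3 and for Kdm2b, Jarid2, Ring1 and Ezh2. Counts of the latter genes differed between Ctrl and dTAG in at least 1 line in edgeR over both replicates, with or without the replicate as a term. GGACT is in capitals with 10 bases on each side, 5′ to 3′ on the transcript. A match is a description of the sequence and not a measured m6A site.
Mtf2, 3′ UTR, 6 bases after the stop codon, chr5:108106951-108106955: cctgactgtaGGACTgaacgtaatg
Eed, 3′ UTR, 169 bases after, chr7:89954764-89954768: cttcctgctcGGACTttactgcttt
Rnf2, 3′ UTR, 179 bases after, chr1:151471133-151471137: tttgtggaaaGGACTctgtgattca
Kdm2b, coding exon 21 of 23, 458 bases before, chr5:122879298-122879302: gtgggtagaaGGACTaaaggatgcc
Jarid2, coding exon 14 of 18, 715 bases before, chr13:44913694-44913698: aaggtccacaGGACTgtacagcaga
Ring1, coding exon 3 of 7, 1011 bases before, chr17:34023318-34023322: ggttctgctcGGACTgcatcgtcac
Ezh2, coding exon 10 of 20, 1087 bases before, chr6:47545743-47545747: agagaagcagGGACTgaaactgggg

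The PRC2 core was not expressed in equal measure. Per kb of the deposited gene length, Eed was the highest of the 9 in Ctrl libraries of every line, at 107.8 ± 19.7 CPM per kb in METTL3, 103.9 ± 11.9 in YTHDC1 and 88.4 ± 4.73 in ZCCHC8 libraries (SD, n = 6). Suz12 was at 94.6 ± 26.5, 85.0 ± 23.8 and 60.9 ± 11.5 CPM per kb, and Ezh2 at 33.9 ± 6.81, 29.4 ± 4.19 and 27.0 ± 6.11. Of the accessory subunits, Mtf2 was at 84.5 ± 18.01, 81.1 ± 18.5 and 63.0 ± 10.3 CPM per kb and Jarid2 at 37.9 ± 11.8, 31.3 ± 6.34 and 34.7 ± 7.74. In bulk RNA, fewer cells of a type and less RNA per cell cannot be told apart.

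The PRC1 ligases differed more. Rnf2 was at 59.4 ± 9.13, 54.0 ± 7.39 and 46.5 ± 3.09 CPM per kb in METTL3, YTHDC1 and ZCCHC8 Ctrl libraries, and Ring1 at 2.19 ± 0.673, 3.21 ± 1.05 and 2.94 ± 0.532 (SD, n = 6). Ring1 rested on 39 to 179 reads per library, against 659 to 4226 for Rnf2, so its new-to-total ratio had a 90% credible interval with a median width of 0.227. Pcgf6 was at 40.9 ± 13.7, 35.7 ± 7.78 and 24.5 ± 2.81 CPM per kb and Kdm2b at 18.2 ± 4.52, 20.0 ± 3.72 and 23.7 ± 1.19. In the METTL3 and YTHDC1 lines the order was the same, Eed, Suz12, Mtf2, Rnf2, Pcgf6, Jarid2, Ezh2, Kdm2b and Ring1, and neighbours differed by less than 1 SD between Eed and Mtf2 and between Pcgf6 and Ezh2. In the ZCCHC8 line Mtf2 stood above Suz12 by less than 1 SD, and the 4 genes from Jarid2 to Kdm2b were each within 1 SD of the next.

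**Figure D1:**
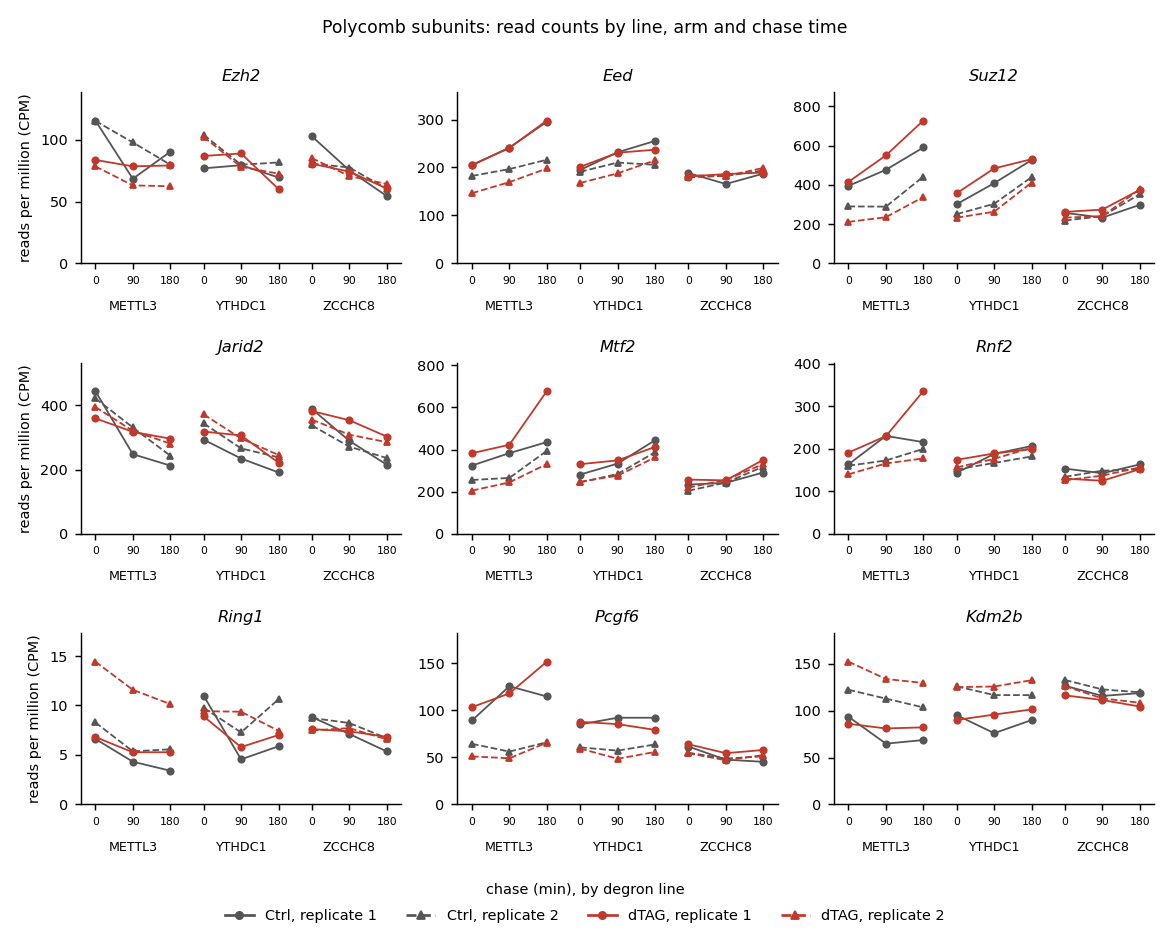
Read counts in CPM (y axis from 0) of each of the 9 subunits at 0, 90 and 180 min of chase (x axis) in the METTL3, YTHDC1 and ZCCHC8 lines, with 1 point per library, lines joining a replicate, grey for Ctrl and red for dTAG. Suz12 and Mtf2 were higher at 180 than at 0 min in all 12 series, Jarid2 and Ezh2 were lower in all 12, and Ring1 lay between 3.40 and 14.4 CPM.

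The first comparison asked whether depletion of each protein altered the subunits' RNA. Following METTL3 depletion, 0 of the 9 subunits passed the edgeR test at an adjusted p of 0.05, against 20.1% of the 14413 genes tested. With an unadjusted p under 0.05 there were 2 members, Ezh2 and Ring1, and DESeq2 also called 0 members. Replicate numbers marked samples that deviated together in this line, and with the replicate as a block 3 members passed, Ezh2, Ring1 and Kdm2b, against 48.5% of genes. For the subunits as a list the median log2 fold change was 0.11, against 0.01 over all genes tested.

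Ring1, the less abundant PRC1 ligase, had the widest difference. Its level in METTL3 Ctrl libraries at 0, 90 and 180 min was 6.62, 4.32 and 3.40 CPM in replicate 1 and 8.28, 5.36 and 5.57 CPM in replicate 2. In dTAG libraries it was 6.81, 5.27 and 5.27 CPM in replicate 1 and 14.4, 11.6 and 10.1 CPM in replicate 2. It was higher with dTAG in 6 of 6 pairs of the same replicate and time, with the 3 highest libraries all dTAG libraries of replicate 2. The log2 fold change was 0.72 (SE 0.27, edgeR adjusted p 0.0893), and with the block it was 0.65 (SE 0.14, edgeR adjusted p 0.000679). By itself, replicate 2 gave 0.94, and replicate 1 gave 0.33.

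Ezh2, the PRC2 methyltransferase, lay in the other direction. In METTL3 Ctrl libraries it was at 115.6, 68.4 and 90.3 CPM in replicate 1 and 115.3, 97.9 and 79.8 CPM in replicate 2, and in dTAG libraries at 83.7, 78.5 and 79.2 CPM and at 78.4, 63.0 and 62.4 CPM. It was lower with dTAG in 5 of 6 pairs, and the pair at 90 min of replicate 1 went the other way. The log2 fold change was -0.32 (SE 0.12, edgeR adjusted p 0.092), and with the block -0.32 (SE 0.10, edgeR adjusted p 0.0123). Taken by themselves, replicate 2 gave -0.49 and replicate 1 gave -0.12.

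Kdm2b, the CpG-island binding subunit, was at 93.5, 64.8 and 68.7 CPM in METTL3 Ctrl libraries of replicate 1 and at 122.3, 112.9 and 103.4 CPM in those of replicate 2. In dTAG libraries it was at 86.0, 81.0 and 82.2 CPM and at 152.3, 133.8 and 129.5 CPM. Replicate 2 exceeded replicate 1 by more than the arms differed, and 5 of 6 pairs were higher with dTAG. The log2 fold change was 0.26 (SE 0.22, edgeR adjusted p 0.451), and with the block 0.24 (SE 0.082, edgeR adjusted p 0.0188). Replicate 2 by itself gave 0.32, and replicate 1 gave 0.19.

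The replicates of the METTL3 line lay on opposite sides of 0 for Suz12, Mtf2, Rnf2 and Eed. Suz12 had a log2 fold change of 0.00 over both replicates (SE 0.27, edgeR adjusted p 0.999), of 0.23 in the libraries of replicate 1 and of -0.35 in those of replicate 2. Its dTAG libraries held 415.1, 550.5 and 728.4 CPM in replicate 1 and 211.1, 235.0 and 338.3 CPM in replicate 2, while Ctrl held 394.8, 476.8 and 590.8 CPM and 290.0, 288.8 and 442.1 CPM. Mtf2 gave 0.38 in replicate 1 and -0.20 in replicate 2. Rnf2 gave 0.32 in replicate 1 and -0.11 in replicate 2, and Eed gave 0.04 and -0.19. Pcgf6 differed between replicates in both arms, with 89.0 to 151.4 CPM in replicate 1 and 48.9 to 66.0 CPM in replicate 2, and its log2 fold change was 0.07 (SE 0.31, edgeR adjusted p 0.914).

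Following YTHDC1 depletion, 0 of the 9 subunits passed, against 5.25% of the 14199 genes tested, none had an unadjusted p under 0.05, and DESeq2 called 0 members. With the replicate block Jarid2 passed, against 27.3% of genes, and summed chase libraries, 2 against 2, called 0 of 15513 genes. Jarid2 was at 293.3, 234.5 and 191.2 CPM in Ctrl libraries of replicate 1 and 343.9, 266.0 and 238.1 CPM in those of replicate 2, and at 318.3, 306.3 and 221.6 CPM and 371.9, 296.9 and 245.5 CPM with dTAG. Every pair was higher with dTAG (6 of 6), although each arm's range over the chase was wider than the gap between arms. The log2 fold change was 0.18 (SE 0.087, edgeR adjusted p 0.298), and with the block 0.18 (SE 0.046, edgeR adjusted p 0.0047). Split by replicate, the estimate was 0.25 in replicate 1 and 0.11 in replicate 2. For the other 8 members the log2 fold change lay between -0.10 (Pcgf6) and 0.13 (Kdm2b). Suz12 was at 0.05 over both replicates, with 0.18 from replicate 1 and -0.14 from replicate 2.

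Following ZCCHC8 depletion, 3 of the 9 subunits rose, Jarid2, Suz12 and Mtf2, and 0 fell, against 39.6% of the 13962 genes tested in either direction and 20.1% higher. All 3 belong to PRC2, but DESeq2 and the summed chase libraries, 2 against 2, called Jarid2 only. These calls therefore do not set PRC2 subunits apart from PRC1 subunits. The share of members was near that of all genes, and the changes were small.

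Jarid2 in the ZCCHC8 line was at 388.8, 289.7 and 215.2 CPM in Ctrl libraries of replicate 1 and 337.7, 271.4 and 236.0 CPM in those of replicate 2. With dTAG it was at 382.2, 353.7 and 302.8 CPM and at 355.5, 308.7 and 285.4 CPM. The arms lay close together at 0 min and apart at 180 min, with 5 of 6 pairs higher. The log2 fold change was 0.25 (SE 0.058, edgeR adjusted p 0.00156), and DESeq2 and the comparison of summed chase libraries, 2 against 2, kept the call. From the 0 min libraries alone it was 0.06 and did not pass.

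Mtf2 in the ZCCHC8 line was at 233.7, 242.1 and 291.1 CPM and at 204.6, 243.0 and 318.9 CPM in Ctrl replicates 1 and 2, and at 257.6, 253.7 and 351.5 CPM and 219.5, 255.8 and 331.2 CPM with dTAG. All 6 pairs were higher with dTAG, by 0.05 to 0.27 on the log2 scale. Over all pairs edgeR gave 0.16 (SE 0.049, edgeR adjusted p 0.0133).

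Suz12 in the ZCCHC8 line was at 257.1, 232.9 and 298.1 CPM and at 218.1, 240.4 and 352.3 CPM in Ctrl replicates 1 and 2, and at 261.8, 274.0 and 374.5 CPM and 232.9, 240.1 and 377.3 CPM with dTAG. The log2 fold change was 0.17 (SE 0.055, edgeR adjusted p 0.018), with 5 of 6 pairs higher. Replicate 2 by itself gave 0.09, which did not pass. DESeq2 and the summed libraries did not call Suz12 or Mtf2 (Suz12 adjusted p 0.0767 with DESeq2 and 0.0829 with edgeR on summed libraries, Mtf2 0.0519 and 0.0909). Kdm2b was lower with dTAG in 6 of 6 pairs, by 0.06 to 0.19 on the log2 scale, but its estimate of -0.08 did not pass (SE 0.044, edgeR adjusted p 0.151). The feeder markers summed to 21.9 to 28.2 CPM in Ctrl and 23.8 to 30.2 CPM in dTAG libraries of this line, whose cells were preplated to remove feeders, and their part in these differences was not tested. In all 27 combinations of member and line, the 6 Ctrl and 6 dTAG libraries overlapped in CPM. Each set of 6 spans all chase times, over which several members rose or fell, and the overlap of all genes was not computed. The count therefore describes these libraries and does not set the members apart from other genes.

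**Figure D2:**
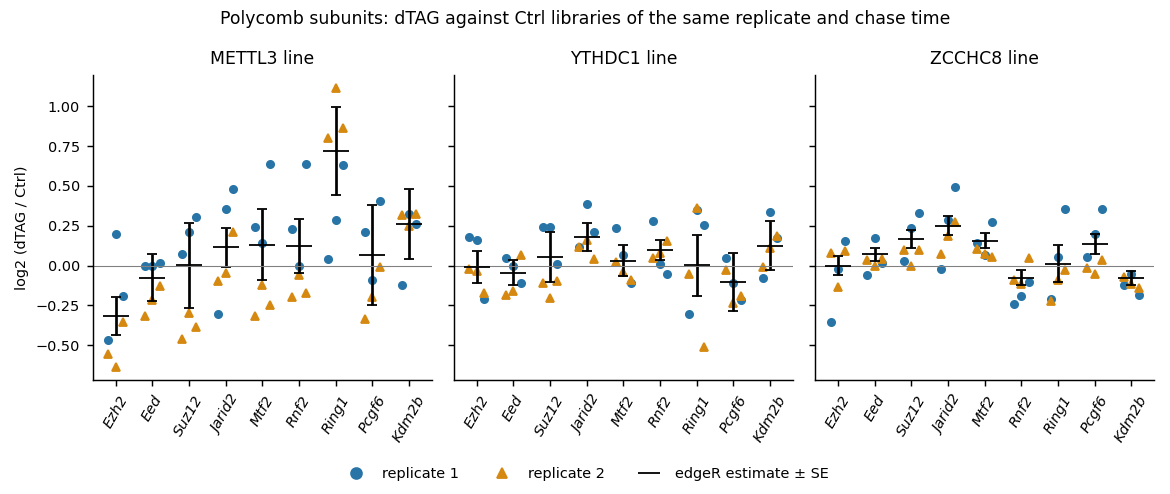
Log2 ratio of dTAG to Ctrl CPM (y axis) for each subunit (x axis) in the 3 lines, with 1 point for each pair of libraries of the same replicate and chase time (blue circles, replicate 1, orange triangles, replicate 2) and black bars for the edgeR log2 fold change ± SE. In the METTL3 line the replicates of Suz12 and Mtf2 lie on either side of 0 and all 6 Ring1 points are above it, while in the ZCCHC8 line all 6 Mtf2 points are above 0 and all 6 Kdm2b points below it.

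Whether the response of a subunit differed between depletions was tested as an interaction over all 36 libraries. Of the 27 member tests, 0 passed with edgeR and 3 had an unadjusted p under 0.05, with 20.6% of 15105 genes called between the METTL3 and YTHDC1 lines, 23.7% between ZCCHC8 and METTL3 and 14.4% between ZCCHC8 and YTHDC1. DESeq2 called 0 of 27. With the replicate block 5 tests passed, against 42.8%, 43.5% and 32.3% of genes. The METTL3 response exceeded the YTHDC1 response by 0.64 for Ring1 (SE 0.18, edgeR adjusted p 0.00452) and was below it by 0.34 for Ezh2 (difference -0.34, SE 0.12, edgeR adjusted p 0.0189) on the log2 scale. The ZCCHC8 minus METTL3 difference was -0.68 for Ring1 (SE 0.20, edgeR adjusted p 0.00532) and -0.36 for Kdm2b (SE 0.083, edgeR adjusted p 0.00056). For Kdm2b the ZCCHC8 response was also lower than the YTHDC1 response (-0.27, SE 0.083, edgeR adjusted p 0.0121). Between the METTL3 and YTHDC1 lines the Ring1 difference was 1.04 without replicate 1 and 0.25 without replicate 2, and the latter did not pass. None of the 5 calls gained with the block passed without replicate 2.

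Levels without dTAG-13 were compared between the clones in Ctrl libraries. Each line is a different clone with its own tag, so clone, tag and culture cannot be told apart. The ZCCHC8 line had less Zcchc8 mRNA even in Ctrl, at 34.5 ± 5.10 CPM against 72.0 ± 18.4 CPM in the METTL3 and 74.6 ± 20.8 CPM in the YTHDC1 line (SD, n = 6, log2 differences -1.02 and -1.06, edgeR adjusted p 3.03e-05 and 6.36e-05). Between the METTL3 and YTHDC1 lines 0 of 9 subunits passed with edgeR and 2 had an unadjusted p under 0.05, against 2.43% of 14267 genes called, and DESeq2 called 0. With the replicate block, which these lines share, Ring1 was lower in the METTL3 line (log2 difference -0.54, SE 0.15, edgeR adjusted p 0.0378), against 6.04% of genes.

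The ZCCHC8 line had less RNA of most subunits than the METTL3 line. In this comparison 7 of 9 passed, 6 lower and 1 higher, against 30.7% of genes (17.7% lower and 13.0% higher). The PRC2 core was lower for all 3 genes, with a log2 difference of -0.61 for Suz12 (SE 0.13, edgeR adjusted p 0.00415), -0.32 for Ezh2 and -0.25 for Eed. Mtf2 was lower by 0.40 (log2 difference -0.40, SE 0.091, edgeR adjusted p 0.00601), and among PRC1 genes Rnf2 was at -0.32 and Pcgf6 at -0.72. Kdm2b was the member that was higher (0.41, SE 0.15, edgeR adjusted p 0.0448), with 115.7 to 132.8 CPM in ZCCHC8 and 64.8 to 122.3 CPM in METTL3 Ctrl libraries. Without replicate 1 Eed was -0.06 and no longer passed, and without replicate 2 Ezh2 was -0.23 and no longer passed. With no filter on low counts 5 members passed, all lower, and Eed (edgeR adjusted p 0.0555) and Kdm2b (edgeR adjusted p 0.0561) did not. Against the YTHDC1 line 2 subunits passed, Suz12 (-0.42, SE 0.13, edgeR adjusted p 0.0399) and Mtf2 (-0.32, SE 0.091, edgeR adjusted p 0.0345), both lower in the ZCCHC8 line, against 13.6% of genes in either direction and 8.6% lower. Either replicate alone called 5 members in this comparison.

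During the uridine chase, Suz12, Mtf2 and Rnf2 went up in CPM and Jarid2 and Ezh2 went down. Over the 12 series of line, arm and replicate, the 180 min level divided by the 0 min level was 1.16 to 1.77 for Suz12, 1.25 to 1.77 for Mtf2 and 1.06 to 1.76 for Rnf2, above 1 in 12 of 12 each. It was 0.478 to 0.824 for Jarid2 and 0.529 to 0.946 for Ezh2, below 1 in 12 of 12 each, and Jarid2 fell at both steps in all 12. Eed was above 1 in 11 of 12 series, Ring1 below 1 in 11 of 12 and Kdm2b below 1 in 10 of 12, and Pcgf6 was above 1 in 6 and below 1 in 6.

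The slope of the counts per hour of chase was tested in each line over both arms. In the METTL3 line 1 of 9 subunits passed, against 17.8% of 14185 genes, Jarid2 at -0.22 log2 units per h (SE 0.046, edgeR adjusted p 0.00756). With the replicate block all 9 passed, against 46.4% of genes, with positive slopes for Suz12 (0.22), Mtf2 (0.21), Rnf2 (0.16), Eed (0.14) and Pcgf6 (0.10) and negative slopes for Jarid2, Ring1 (-0.20), Ezh2 (-0.11) and Kdm2b (-0.09). In the YTHDC1 line 5 of 9 passed, against 42.5% of 14007 genes. Suz12 (0.24, SE 0.063), Mtf2 (0.17, SE 0.040) and Rnf2 (0.10, SE 0.027) rose, and Jarid2 (-0.20, SE 0.034) and Ezh2 (-0.14, SE 0.039) fell, with edgeR adjusted p from 0.000595 to 0.0122. The block added Eed (0.09), for 6 of 9 against 65.2% of genes.

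In the ZCCHC8 line 5 of 9 members passed, against 59.1% of 13757 genes. They were the genes called in the YTHDC1 line, with log2 slopes per h of 0.19 for Suz12 (SE 0.030), 0.18 for Mtf2 (SE 0.022), 0.08 for Rnf2 (SE 0.021), -0.16 for Jarid2 (SE 0.024) and -0.17 for Ezh2 (SE 0.026) and edgeR adjusted p from 3.01e-07 to 0.00203. Without replicate 2 the Rnf2 slope was 0.07 in the ZCCHC8 line and the Ezh2 slope -0.11 in the YTHDC1 line, and neither passed. Counts were scaled to the library, so these slopes are relative to the other RNAs of the cell. For Jarid2 the METTL3 slope was -0.31 in Ctrl libraries alone and -0.11 in dTAG libraries alone, and neither passed. Whether the slopes of the arms differ was not tested.

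The new-to-total ratio, which is GRAND-SLAM's estimate of how much of a gene's RNA was made with 4sU present, separated the subunits at the end of the pulse. In Ctrl libraries at 0 min, Rnf2 was at 0.902 and 0.930 in METTL3 replicates 1 and 2, 0.874 and 0.922 in YTHDC1 and 0.888 and 0.897 in ZCCHC8 libraries. Mtf2 was at 0.807 and 0.866, 0.824 and 0.865, and 0.813 and 0.880. Ezh2 was at 0.413 and 0.412, 0.345 and 0.383, and 0.318 and 0.413, below every other member in every line. Between them, the Ctrl means of the 3 lines were 0.786 to 0.811 for Kdm2b, 0.750 to 0.784 for Eed, 0.708 to 0.745 for Jarid2, 0.614 to 0.709 for Suz12 and 0.58 to 0.63 for Pcgf6. Label was compared only for genes that no library of the line put under 100 reads or under a ratio of 0.02, and the median ratio of these was 0.599, 0.576 and 0.517 in the METTL3, YTHDC1 and ZCCHC8 lines, so Rnf2 stood at the 88.6, 83.9 and 83.9 percentiles and Ezh2 at 31.6, 29.1 and 34.3.

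**Figure D3:**
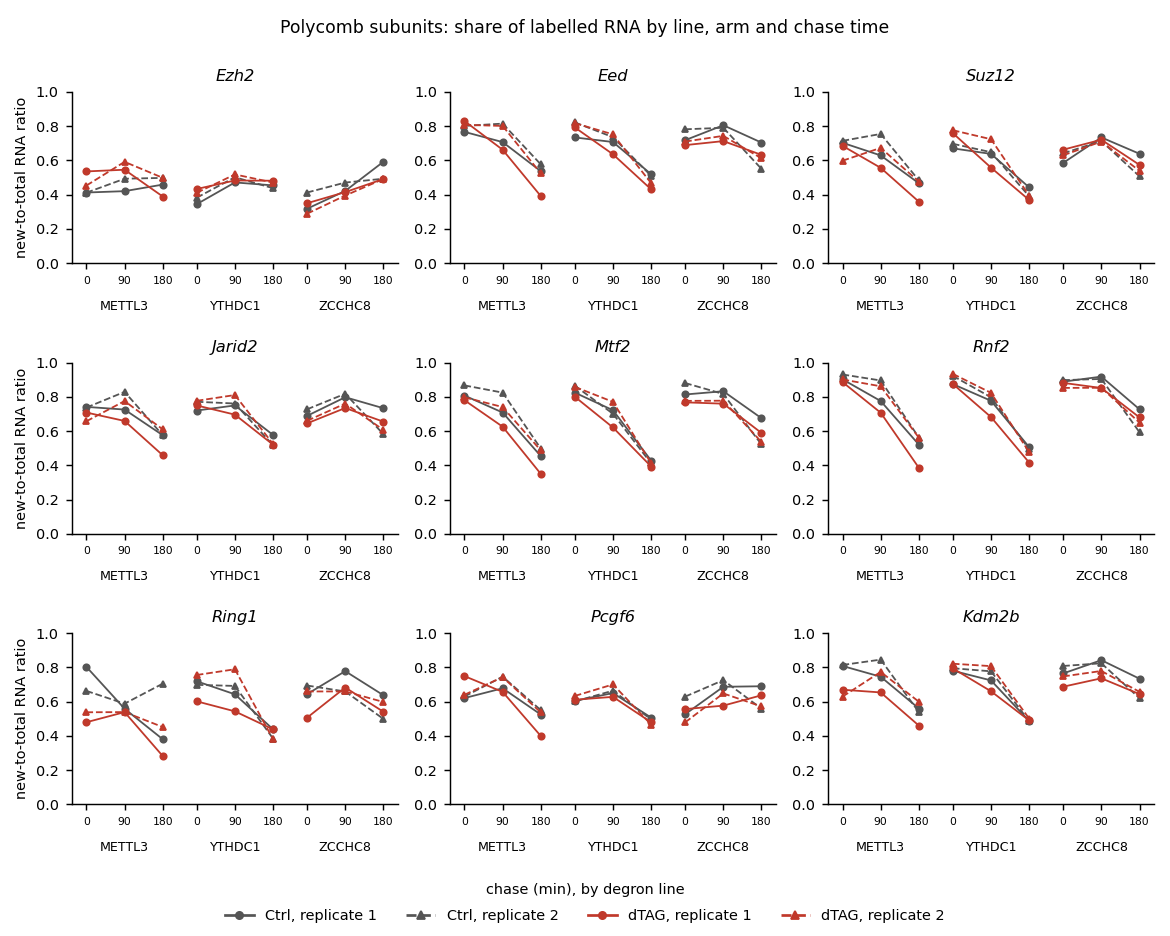
New-to-total RNA ratio (maximum of the posterior, y axis from 0 to 1) of each subunit at 0, 90 and 180 min of chase (x axis) in the 3 lines, with 1 point per library, grey for Ctrl and red for dTAG. In Ctrl libraries Rnf2 and Mtf2 had the highest means at 0 min and Ezh2 the lowest, and Ezh2 lay between 0.289 and 0.593 over all libraries.

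The label left at the end of the chase differed between subunits, and the ratio did not fall steadily. Mean Ctrl ratios of Jarid2, Pcgf6 and Ezh2 were higher at 90 than at 0 min in every line (Jarid2 in ZCCHC8, 0.808 and 0.708). Those of Suz12, Eed, Rnf2, Kdm2b and Ring1 were higher at 90 min in the ZCCHC8 line only, and those of Mtf2 in no line. At 180 min of chase the new-to-total ratio of Mtf2 in Ctrl libraries was 56.8 ± 0.9% of its 0 min value in the METTL3 line, 49.7 ± 3.1% in YTHDC1 and 71.1 ± 16.8% in ZCCHC8 (SD, n = 2). Rnf2 kept 59.0 ± 1.9%, 55.7 ± 3.0% and 73.9 ± 11.2%, and Suz12 67.1 ± 0.9%, 61.0 ± 7.1% and 94.0 ± 21.3%. Eed kept 71.0%, 66.4% and 84.2% on average, Kdm2b 67.7%, 61.7% and 86.3%, Jarid2 77.9%, 73.6% and 93.3%, and Pcgf6 85.9%, 83.2% and 109.9%. For Ezh2 the values were 116.1 ± 6.9%, 123.1 ± 12.2% and 152.9 ± 47.2%, so its ratio was higher at the end of the chase than at its start. Over all genes that met the same minimum the median was 84.3%, 80.6% and 109.8%. In Ctrl libraries of the ZCCHC8 line replicate 1 kept more label than replicate 2 in all 9 members (Suz12 109.1% and 79.0%, Ezh2 186.3% and 119.5%), and differences between replicates there were as large as those between most members.

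The T-to-C rate, conversions over T coverage, gave a faster loss for the same reads. By this measure Ctrl Mtf2 kept 38.3 ± 5.6%, 33.6 ± 5.2% and 41.7 ± 11.4% in METTL3, YTHDC1 and ZCCHC8 libraries, Rnf2 37.7 ± 4.1%, 37.0 ± 4.6% and 43.7 ± 8.0%, and Ezh2 89.4 ± 6.9%, 92.5 ± 18.1% and 113.3 ± 42.4% (SD, n = 2). The order of these 3 genes was the same apart from Mtf2 and Rnf2, which lay within 1 SD of each other, while the absolute values depend on the measure. Neither measure separates decay from unlabelled RNA made during the chase. Old RNA in CPM, the part of a gene's CPM not assigned to the pulse, was 3.06 to 7.80 times higher at 180 than at 0 min for Rnf2 and 2.77 to 6.04 times for Mtf2 over the 6 combinations of line and arm. For Ezh2 old RNA at 180 min was 0.481 to 0.988 of its 0 min level, and for Jarid2 new RNA was 0.411 to 0.771 of it.

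No difference in label between the arms passed the test for a subunit. The limma test compared the arms in 8 members, since Ring1 had fewer than 100 reads in some libraries. For the slope of the ratio 0 of 8 passed in each line and 0 of 8 had an unadjusted p under 0.05, with 0.977% of 8289 genes called in the METTL3 line, 0.0% of 8820 in YTHDC1 and 0.0% of 7251 in ZCCHC8. The limma log2 difference in slope per h, dTAG minus Ctrl, ranged from -0.13 (Ezh2, SE 0.0795) to 0.09 (Kdm2b, SE 0.0829) in the METTL3 line. The range was -0.10 (Suz12, SE 0.0786) to 0.00 (Kdm2b, SE 0.0721) in the YTHDC1 line and -0.04 (Suz12, SE 0.0772) to 0.04 (Pcgf6, SE 0.0743) in the ZCCHC8 line. For the ratio at 0 min 0 of 8 passed in each line, with 16.2%, 0.0227% and 0.0414% of genes called. This test took the value at 0 min of a line fitted over the 3 chase times, which need not equal the ratio measured at 0 min. One member of 8 had an unadjusted p under 0.05, Ezh2 in the METTL3 line (fitted log2 difference 0.34, SE 0.15, limma adjusted p 0.145), with measured 0 min ratios of 0.536 and 0.454 in dTAG and 0.413 and 0.412 in Ctrl. For Kdm2b in the same line the measured ratios lay further apart in the other direction, at 0.670 and 0.629 in dTAG and 0.808 and 0.814 in Ctrl, and the fitted log2 difference was -0.31 (SE 0.16, limma adjusted p 0.219). The T-to-C rate called 0 of 8 in each of these 6 tests.

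The other genes of the pathway were described by lists. Of 9 further PRC2 genes, 1 fell after METTL3 depletion, Phf19, a Polycomb-like subunit related to Mtf2 (28.8 ± 9.20 to 17.97 ± 4.39 CPM, SD, n = 6, log2 fold change -0.64, edgeR adjusted p 0.00553). None passed after YTHDC1 depletion, where 5 did with the block, and 3 passed after ZCCHC8 depletion, Epop (-0.32), Aebp2 (0.19) and Ezh1 (0.28), the alternative methyltransferase of PRC2. Of 32 further PRC1 genes, 5 rose and 1 fell after METTL3 depletion, 0 passed after YTHDC1 depletion (10 with the block), and 5 rose and 6 fell after ZCCHC8 depletion. For both lists together with the genes that oppose Polycomb, these counts stand against 20.1%, 5.25% and 39.6% of all genes called in the METTL3, YTHDC1 and ZCCHC8 lines, and against 27.3% with the YTHDC1 block. With chase libraries summed, 2 against 2, 0 of 15895 genes passed in the METTL3 and 0 of 15513 in the YTHDC1 line. List genes called in these 2 lines, here and below, thus rest on chase times taken as separate samples. In the METTL3 line Hdac1, a histone deacetylase, fell from 195.4 ± 33.9 to 133.1 ± 31.7 CPM (log2 fold change -0.55), Cbx8, a chromodomain reader of PRC1, rose from 1.38 ± 0.653 to 4.47 ± 2.23 CPM (1.75), and Pcgf5 rose (0.74). In the ZCCHC8 line Tfdp1, a partner of E2F6 in a variant PRC1, fell from 202.2 ± 18.5 to 132.2 ± 9.72 CPM (-0.58), Pcgf3 fell (-0.48) and L3mbtl2 rose (0.34).

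Of 12 genes for enzymes that oppose Polycomb marks and their partners, 1 rose after METTL3 depletion (Asxl1, 0.35), 1 fell after YTHDC1 depletion (Foxk2, -0.33), and 1 rose and 5 fell after ZCCHC8 depletion. The latter included Foxk2, a DNA-binding partner of the H2A deubiquitinase BAP1, which fell from 79.6 ± 32.0 to 50.4 ± 21.7 CPM (-0.63), and Kdm6b, an H3K27 demethylase, which fell from 9.15 ± 2.38 to 5.06 ± 1.87 CPM (-0.84). With the block the METTL3 counts were 5 of 9 further PRC2 genes, 19 of 32 PRC1 genes and 5 of 12 opposing genes, against 48.5% of all genes. Over the chase 5, 6 and 9 of the 9 further PRC2 genes passed in the METTL3, YTHDC1 and ZCCHC8 lines, 6, 12 and 21 of the 32 PRC1 genes, and 4, 5 and 7 of the 12 opposing genes, against 17.8%, 42.5% and 59.1% of all genes. Foxk2, Kdm6a (an H3K27 demethylase) and Asxl2 (a BAP1 partner) rose in every line, by 0.23 to 0.45 log2 units per h, and Aebp2, an accessory subunit of PRC2, by 0.25 to 0.30.

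A list of 33 developmental genes taken as repressed by Polycomb in stem cells was also read. Tbx3, which is on it, was at 58.7, 79.0 and 95.1 CPM in METTL3, YTHDC1 and ZCCHC8 Ctrl libraries. The name therefore does not hold for every gene of the list. In the METTL3 line 16 were tested, 8 rose and 0 fell, where 11.3% of all genes rose. With the block 12 rose, where 3520 of 14413 genes rose. Genes with few reads pass the filter more easily when one arm is high, and Hoxb13, Hoxd13 and Msx1 were tested in this line only. Both counts therefore describe these 16 genes and support nothing about the list. Eomes, a T-box factor, went from 4.06 ± 1.82 to 14.2 ± 6.78 CPM (1.80) and Hoxb13 from 0.283 ± 0.130 to 1.14 ± 0.223 CPM (2.07), each higher in 6 of 6 pairs. In the YTHDC1 line 0 of 13 passed, against 5.25% of all genes (2 with the block, 1 in each direction, against 27.3%). In the ZCCHC8 line 4 of 13 rose and 0 fell, where 20.1% of all genes rose. The 4 included Pax6 (3.20 ± 1.30 to 5.39 ± 1.10 CPM, 0.82), Wnt6 (0.66) and Sox17 (0.88). The same kind of filter chose these 13 genes, and some have few reads, so this count too supports nothing about the list. The interaction test called 6 of 21 higher in the METTL3 than in the YTHDC1 response, where 10.3% of all genes were. Its filter can likewise favour genes that are high in METTL3 dTAG libraries, so this count supports nothing about the list either. In the same METTL3 libraries the feeder markers summed to 13.5 to 29.4 CPM in Ctrl and 14.9 to 35.1 CPM in dTAG, again from preplated cells, and the stem cell markers to 2454 to 3532 and 2432 to 3072 CPM. Their part in these differences was not tested.

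**Figure D4:**
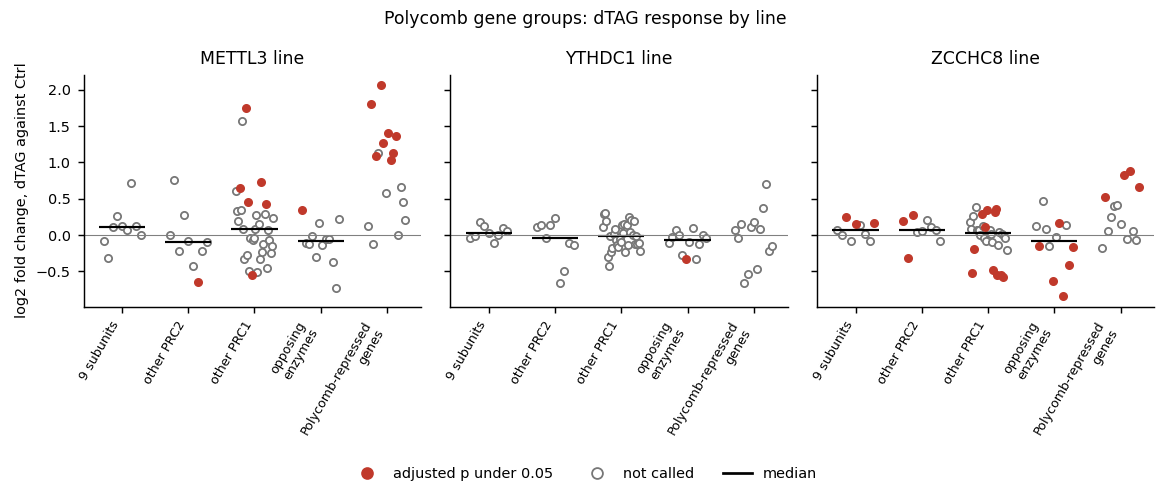
Log2 fold change, dTAG against Ctrl, from edgeR (y axis) for the 9 subunits and 4 gene lists (x axis) in the 3 lines, with 1 point per gene tested, filled red where the adjusted p was under 0.05, and a bar at the median of each group but the Polycomb-repressed genes, which differ between lines in which genes were tested. The subunits have a median of 0.11 in the METTL3 line and 0.07 in the ZCCHC8 line, where 3 of them are red.

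Across the 18 group means of log2 CPM, the genes most like each member among 13431 were read by Pearson's r, as a description, since group means share libraries, chase time and depth. For Suz12 the closest were Cnot2 (r = 0.978), Mtf2 (0.975) and G2e3 (0.973), so another subunit was second. Mtf2 was closest to Katnbl1 (0.979), Trove2 (0.978) and Cnot2 (0.977). For Jarid2 they were Cdhr1 (0.931), Sfmbt2 (0.922) and St6galnac2 (0.916), and for Ezh2 Usp28 (0.957), Nasp (0.930) and Xpot (0.930). Between the core subunits r was 0.908 for Eed and Suz12, -0.27 for Ezh2 and Suz12 and -0.15 for Ezh2 and Eed.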

How the data were processed

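Total RNA from mES cells was treated with iodoacetamide and sequenced as stranded, paired-end libraries. Per the study's methods and the labels, the authors discarded rRNA reads, aligned the rest to mm10 with STAR 2.5.2b (unique, end to end, two-pass) and ran GRAND-SLAM separately for each line and replicate. Its version, the annotation release and the use of strand in counting are not given in the sources used here. The deposited tables hold raw read counts per gene and, as a fraction from 0 to 1, the new-to-total ratio (its posterior maximum and 90% credible interval), which depends on conversion rates the authors' run estimated within a table. Conversions and T coverage were deposited too and gave the T-to-C rate. Of the columns, 180 were not used.

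Read counts were tested with edgeR 4.0.16 (R 4.3.3, TMM, filterByExpr, robust quasi-likelihood, Benjamini-Hochberg over all genes, threshold 0.05), with chase time and arm as terms for dTAG against Ctrl, over all 36 libraries for interactions and over the 18 Ctrl libraries between lines. DESeq2 1.42.0 was an alternative. Label was tested with limma 3.58.1 on log2 ratios, with the replicate as a block. CPM comes from edgeR, with the TMM factors of all 36 libraries, and group values are mean ± SD.

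Replicate numbers come from the table names. Deviations of same-numbered Ctrl and dTAG libraries from their group means correlated at 0.537 to 0.723 in the METTL3, 0.580 to 0.645 in the YTHDC1 and 0.120 to 0.126 in the ZCCHC8 line (15366 genes). The numbers thus pair the arms in the METTL3 and YTHDC1 lines, and at most weakly in the ZCCHC8 line. Over all 6 groups of a line they pair the METTL3 and YTHDC1 libraries (at least 0.483) but not the ZCCHC8 libraries (0.0712 to 0.166). METTL3 and YTHDC1 Ctrl libraries are paired too (0.374 to 0.736), and neither is paired with the ZCCHC8 line (0.0013 to 0.143).

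All 9 members are named, and up to 3 genes of each other list per comparison, those with the smallest adjusted p among those called, plus Ythdc1 and Zcchc8 as checks. The values of 1 such gene are not reported here. Genes of like pattern are the 3 with the highest Pearson's r over group means of log2(CPM + 0.5), given for 4 members. The members and lists were chosen with earlier results of these data known. Alternatives were other scaling and filters, DESeq2, the replicate block, summed libraries, 0 min libraries, each replicate left out and other measures of label.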

Additional observations from a re-analysis of the deposited data

Results flagged for a closer look

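In the YTHDC1 line, Ctrl replicate 2 at 0 min had 104.0 CPM of Ezh2, set apart from the other 5 Ctrl libraries of that line (69.5 to 81.6 CPM). Its gap to the next library was 0.6485 of the group's range, above Dixon's 95% critical value for 6 samples. The 6 libraries include 3 chase times, and the dTAG library of the same replicate and time had 102.3 CPM. Of 54 groups of 6 libraries tested over the 9 members, this 1 was set apart, where chance gives about 1 in 20.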

How the results depend on the processing

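The replicate block and leaving out a replicate moved more counts of genes called than the other settings, 10 with the block, 12 without replicate 1 and 11 without replicate 2. With the block, dTAG against Ctrl called 6994 genes and 3 members after METTL3 depletion and 3875 and 1 after YTHDC1 depletion, and the differences between responses gave 6465 genes and 2 members (METTL3 minus YTHDC1), 6574 and 2 (ZCCHC8 minus METTL3) and 4881 and 1 (ZCCHC8 minus YTHDC1). Over the chase the block gave 6692 genes and 9 members in the METTL3 line and 9261 genes in the YTHDC1 line, and between Ctrl libraries 871 genes and 1 member (METTL3 minus YTHDC1), 6717 genes (ZCCHC8 minus METTL3) and 5298 and 5 (ZCCHC8 minus YTHDC1), the last pair of comparisons sharing only a number. Without the block, loss of label gave 30 genes in the METTL3 line. For the members' dTAG calls of the ZCCHC8 line the block changed none.

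Each other setting moved at most 3 counts. The 0 min libraries called 0 genes in the METTL3 and YTHDC1 lines and 1373 genes with 0 members in the ZCCHC8 line. Summed libraries called 0 genes in the METTL3 and YTHDC1 lines and 1 member in the ZCCHC8 line. DESeq2 called 1132 genes in the YTHDC1 line, 644 between METTL3 and YTHDC1 Ctrl libraries and 1 member in the ZCCHC8 line. Over the chase, with arms and scaling chosen after seeing the data, METTL3 Ctrl libraries gave 40 genes and 0 members, dTAG libraries 0 and 0, and no TMM 3 members, while YTHDC1 Ctrl libraries gave 1583 genes and 2 members and dTAG libraries 1814 and 1. Label at 0 min in the YTHDC1 line gave 0 genes with at least 30 reads and 0 by T-to-C rate, and loss of label in the METTL3 line gave 45 and 250. The cause of these shifts was not tested.

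The sign turned for estimates near 0. In the METTL3 line Suz12 was at -0.12 (0 min), -0.0153 (summed), -0.0096 (DESeq2), -0.0152 (no filter) and -0.072 (block). The METTL3 minus YTHDC1 difference of Rnf2 was -0.0245 with the block, and the ZCCHC8 minus METTL3 difference of Mtf2 was 0.00781 with DESeq2, 0.0044 with no filter and 0.044 with the block.

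With each replicate left out, genes called ranged as follows. Differences between responses gave 3760 to 6485 (members 0 to 5), 4160 to 6372 (1 to 6) and 1786 to 4396 (0 to 2), in the order above. For dTAG against Ctrl there were 5717 to 7472 (2 to 6) in the METTL3, 1335 to 3555 (1 both times) in the YTHDC1 and 3409 to 5091 in the ZCCHC8 line, and over the METTL3 chase 3573 to 6603 (6 to 7). Ctrl libraries gave 154 to 2163 (0 to 2, METTL3 minus YTHDC1), 5404 to 6651 (ZCCHC8 minus METTL3) and 4365 to 5666 (5 both times, ZCCHC8 minus YTHDC1). Label at 0 min gave 382 to 737, 0 to 23 and 0 to 103 in the METTL3, YTHDC1 and ZCCHC8 lines, and loss of label 3 to 200 (METTL3) and 0 to 26 (ZCCHC8). Members whose sign turned were, in METTL3 dTAG against Ctrl, Suz12 (-0.35 to 0.23), Mtf2 (-0.20 to 0.38), Rnf2 (-0.11 to 0.32) and Eed (-0.19 to 0.0383), and in YTHDC1 Suz12 (-0.14 to 0.18). Between responses they were Rnf2 (-0.20 to 0.23) and Suz12 (-0.21 to 0.0533) for METTL3 minus YTHDC1, and Mtf2 (-0.23 to 0.28), Rnf2 (-0.51 to 0.068), Eed (-0.00979 to 0.22) and Suz12 (-0.0469 to 0.42) for ZCCHC8 minus METTL3. Between Ctrl libraries they were Jarid2 (-0.19 to 0.0362, ZCCHC8 minus METTL3) and Ezh2 (-0.25 to 0.0435, ZCCHC8 minus YTHDC1).

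Of the members' test values under all alternatives, 316 kept direction and side of the threshold, 69 newly passed, 25 no longer passed and 22 turned sign. The label kept moved by more than 1 SD in 283 of its recomputed values, 94 of them by T-to-C rate. Ring1, with 39 to 179 reads per library, was below the minimum for label, and the ZCCHC8 libraries had the fewest reads.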
